A study of Homo sapiens with 5 samples.

Results

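Iron export, import and storage was examined as a group of 10 listed genes in 2 human lung cancer cell lines whose NEDD9 level was lowered or raised. The genes were taken from array features annotated with exactly 1 gene symbol, and the brightest feature by mean over the 5 arrays stood for each gene. By this rule 8 of the 10 genes were found, each with 1 feature, among 14232 genes in all: SLC40A1, TFRC, TFR2, SLC11A2, STEAP3, FTL, NCOA4 and ACO1. No feature with 1 symbol carried FTH1 or IREB2, so these 2 genes have no value here. Of the 8 genes, 7 exceeded the median of the named features on their brightest array of each comparison, called the median level below, and TFR2 did not. The genes were chosen by their function and by their log2 differences on these arrays (each hairpin and overexpression against control, and control against control). Those differences are therefore a description, and no p is given for any of them.

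A549 is an established lung adenocarcinoma line in which the kinase LKB1 (gene STK11) is lost by mutation and in which, per the submitters, NEDD9, a focal adhesion scaffold, is raised. The line was measured as a control (1 array) and after knockdown with each of 2 short hairpins against NEDD9 (1 array each), so that all 3 arrays share the LKB1 mutation. CRL-5907 is, per the submitters, a line with wild-type LKB1 and low NEDD9, profiled as a control (1 array) and with NEDD9 overexpression (1 array). The description of the hairpin 2 sample names NEDD10 where its title names NEDD9, and the title was followed. The labels do not say whether the controls carried an empty vector, whether the engineered cells were clones or pools, or whether arrays came from separate cultures.

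Values are log2 expression levels after RMA, which corrects background, equalises the distributions of the arrays and summarises the probes of a feature. Only the 2 hairpins give a spread, written as mean ± SD (n = 2), and both are set against the same control array, whose own error this SD leaves out. The precision is limited by the number of arrays. NEDD9 had log2 levels of 8.94 on the A549 control, 8.35 with hairpin 1, 8.52 with hairpin 2, 4.66 on the CRL-5907 control and 9.49 with overexpression. NEDD9 in both knockdowns thus stayed far above its CRL-5907 control level. Its log2 difference from control was -0.59 with hairpin 1, -0.41 with hairpin 2, which is short of 1.5-fold, and 4.83 with overexpression. The manipulations were therefore of unlike size. All 6 epithelial markers measured (such as KRT8 and CDH1) were above the array median in both lines, whereas the 4 measured lung lineage markers, SFTPB, SFTPC, SFTPD and SLC34A2, and the 4 endothelial markers were below it on all 5 arrays. Of 5 leukocyte markers, CD14 was above the median on 2 A549 and 2 CRL-5907 arrays, and PTPRC had the same log2 level, 1.72, on all 5 arrays. KLF1 (erythroid) was above the median on all 5 arrays. COL1A1 (fibroblast) and ALB, APOA1 and TTR (hepatocyte-type) were above it on at least 1 array but not on all.

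Cells take up transferrin-bound iron through the transferrin receptor, reduce it in the endosome, move it into the cytosol, store it in ferritin and release it through ferroportin, the only known iron exporter of vertebrate cells. When cytosolic iron is low, the iron regulatory proteins bind hairpins in messenger RNAs called iron-responsive elements. Binding near the start of the ferritin, ferroportin and ALAS2 messages blocks translation, and binding in the 3′ untranslated region of the TFRC message protects it from decay. Lung epithelium expresses ferritin, transferrin receptor and ferroportin, and cancer cells are known for high iron uptake. Transcript levels measured here report on none of the translational control.

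The element at the start of a message can be read in the first 50 transcribed bases that the RefSeq promoter table (GRCh38.p14) gives for each start. The FTL site is shown because FTL was, of the 8 genes, the one furthest above control with overexpression, and that of ALAS2, the erythroid enzyme that starts haem synthesis, for comparison, with the 6 loop bases in capitals. FTL is at chr19:48965336-48965358 on the + strand, bases 28 to 50 after the start, and ALAS2 at chrX:55030942-55030968 on the - strand, bases 10 to 36 after the start.
FTL: tcttgcttcaaCAGTGTttggac
ALAS2: tcgttcgtcctCAGTGCagggcaacag
Both hold a bulged C, then 5 stem bases, then the loop CAGTGN (searched on the transcribed strand only), which 1.67% of the 35116 promoter entries hold in these 50 bases. No such match was found in this window for SLC40A1, TFRC, STEAP3, ACO1, IREB2, or the several starts listed for SLC11A2 and NCOA4. Elements beyond these 50 bases, such as those in the 3′ untranslated region of TFRC, could not be found, so a miss does not show absence.

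The 250 bases before the start are shown for the 3 genes whose levels spanned at least 1 log2 unit over the 5 arrays. They are chr2:189580787-189581036 on the - strand for SLC40A1, chr3:196082091-196082340 on the - strand for TFRC and chr19:48965059-48965308 on the + strand for FTL. Capitals mark the hypoxia response element core ACGTG or its reverse complement.
SLC40A1: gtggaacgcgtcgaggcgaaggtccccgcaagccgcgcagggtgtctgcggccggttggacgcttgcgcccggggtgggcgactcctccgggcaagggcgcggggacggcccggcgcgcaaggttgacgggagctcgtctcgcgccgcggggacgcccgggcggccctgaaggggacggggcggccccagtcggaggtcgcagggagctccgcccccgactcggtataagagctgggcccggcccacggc
TFRC: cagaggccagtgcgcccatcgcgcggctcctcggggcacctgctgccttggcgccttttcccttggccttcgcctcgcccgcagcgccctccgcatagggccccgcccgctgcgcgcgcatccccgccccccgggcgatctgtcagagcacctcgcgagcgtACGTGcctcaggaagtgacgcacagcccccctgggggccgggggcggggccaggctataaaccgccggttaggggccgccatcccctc
FTL: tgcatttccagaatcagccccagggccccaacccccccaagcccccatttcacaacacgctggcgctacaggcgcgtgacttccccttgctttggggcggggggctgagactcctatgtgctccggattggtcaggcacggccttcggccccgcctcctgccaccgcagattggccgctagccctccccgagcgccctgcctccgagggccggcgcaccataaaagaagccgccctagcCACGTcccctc
The match begins at base -88 in TFRC and at -11 in FTL, and 18.5% of all promoter entries hold ACGTG on either strand in these 250 bases. The antioxidant response element core TGACNNNGC, found in 10.9% of entries, and the E-box CACGTG, found in 6.34%, were searched on both strands and were not in these 3 windows. An E-box contains ACGTG and would be counted under both. G and C made up 77.2% of the SLC40A1 window, 74.4% of TFRC and 67.6% of FTL, against a median of 58% over all entries. These matches describe letters and say nothing about binding.

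The ferroportin transcript was higher with both hairpins and lower with overexpression. SLC40A1, which encodes it, had log2 levels of 7.96 on the A549 control, 8.54 with hairpin 1, 8.49 with hairpin 2, 7.58 on the CRL-5907 control and 6.84 with overexpression. Both knockdown arrays lay above their control, and the overexpression array was the lowest of the 5. The log2 difference was 0.58 with hairpin 1 (1.49-fold) and 0.52 with hairpin 2 (1.44-fold), a mean of 0.55 ± 0.04 (SD, n = 2), which fell just short of the 1.5-fold counted as a difference here. With overexpression it was -0.75, or 1.68-fold below control, and past that threshold. The arrays cannot tell fewer cells with the transcript from less transcript per cell.

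These sizes can be set beside the spread between single arrays. Over genes of like level the 2 hairpin arrays differed from each other with an SD of 0.164 for SLC40A1 in A549, and of 0.134 for genes at its CRL-5907 level. That SD contains any true difference between the hairpins and leaves out the control. In the same direction, 1.12% of the 7485 genes above the median level in A549 were as far from control with both hairpins as SLC40A1, and 0.351% of the 7410 such genes in CRL-5907 were as far below control with overexpression. The genes were chosen with these differences known, so such shares, here and below, are a description and not a test.

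The transferrin receptor was higher in all 3 engineered samples. TFRC had log2 levels of 8.11 on the A549 control, 8.82 with hairpin 1, 8.68 with hairpin 2, 8.81 on the CRL-5907 control and 9.35 with overexpression. The A549 control was the lowest array and overexpression the highest, and both hairpin arrays lay near the CRL-5907 control. The log2 difference was 0.71 with hairpin 1 (1.64-fold) and 0.57 with hairpin 2 (1.49-fold), a mean of 0.64 ± 0.10 (SD, n = 2), and 0.54 with overexpression (1.45-fold). Hairpin 1 thus passed the 1.5-fold threshold, and hairpin 2 and overexpression fell just short of it. As far or further above control were 0.775% of genes with both hairpins and 4.28% with overexpression.

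The second transferrin receptor, TFR2, senses circulating iron in liver and erythroid cells. Its log2 level was 5.66 on the A549 control, 5.44 with hairpin 1, 5.52 with hairpin 2, 5.66 on the CRL-5907 control and 5.66 with overexpression. Every value lay below its array's median and was not shown to exceed background, and the A549 control and overexpression values were exactly equal, which RMA can produce. The differences of -0.22, -0.15 and 0.00 therefore carry little information.

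The genes of endosomal reduction and transport stayed within 1.5-fold of control. STEAP3, the ferrireductase that acts on iron released from transferrin, had log2 levels of 6.74, 6.50 and 6.51 on the A549 control, hairpin 1 and hairpin 2 arrays, and 6.44 and 6.59 on the CRL-5907 control and overexpression arrays. It was lower with both hairpins by a similar amount, with a mean of -0.24 ± 0.00 (SD, n = 2), and higher with overexpression by 0.15. Neither passed 1.5-fold, and the overexpression difference was below the 0.154 SD between hairpins for genes of like level. Both hairpin differences exceeded that SD at its A549 level, 0.169, and 3.09% of genes were as far below control with both. The mean was -0.32 when the arrays were quantile-normalized again and -0.31 with a level trend subtracted. SLC11A2, which encodes the divalent metal transporter DMT1, ranged from 7.47 to 7.63 over the 5 arrays. Its differences were 0.11 with hairpin 1, -0.05 with hairpin 2 and -0.07 with overexpression, and hairpin 1 changed sign when the arrays were quantile-normalized again (-0.02) or a trend with level was fitted and subtracted (-0.01).

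Ferritin light chain was higher with overexpression and did not move the same way with the hairpins. FTL had log2 levels of 8.93 on the A549 control, 9.22 with hairpin 1, 8.82 with hairpin 2, 8.05 on the CRL-5907 control and 8.95 with overexpression. The CRL-5907 control stood below the other 4 arrays, which lay between 8.82 and 9.22. The overexpression difference was 0.90, or 1.87-fold, and 0.85% of genes were as far above control. With the hairpins it was 0.30 and -0.11, a mean of 0.09 ± 0.29 (SD, n = 2), so that the spread exceeded the mean. RefSeq lists 20 FTL pseudogenes under that name, and probes that match such copies would add to this feature, so its value is uncertain.

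NCOA4, the receptor that carries ferritin to the lysosome for iron release, was higher on the A549 arrays and did not move the same way with the hairpins. Its log2 levels were 8.54, 8.72 and 8.40 on the A549 control, hairpin 1 and hairpin 2 arrays, and 7.97 and 8.00 on the CRL-5907 control and overexpression arrays. All 3 A549 arrays lay above both CRL-5907 arrays, though 20.2% of genes were as far above between the control arrays. The hairpin differences were 0.18 and -0.14, a mean of 0.02 ± 0.23 (SD, n = 2), and overexpression was at 0.03, which turned to -0.07 when quantile-normalized again and to -0.05 with the level trend subtracted. ACO1, which encodes iron regulatory protein 1 or, with an iron-sulphur cluster, cytosolic aconitase, varied least, between 9.18 and 9.32. Its differences were 0.12, 0.00 and 0.09.

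**Figure D1:**
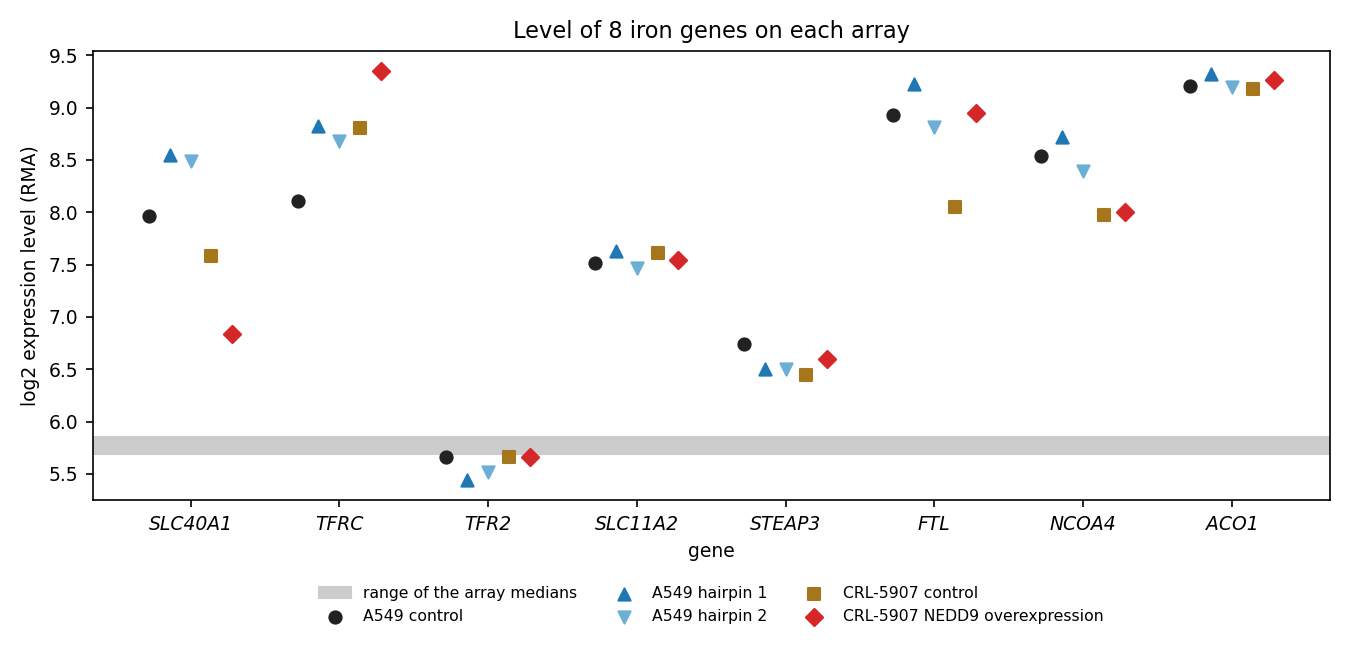
Log2 expression level after RMA (vertical axis) of the 8 genes (horizontal axis), with 1 point for each array and a grey band for the range of the 5 array medians over named features. Of the 5 values of each gene, that of SLC40A1 is lowest (6.84) and that of TFRC highest (9.35) with overexpression, and that of FTL lowest on the CRL-5907 control (8.05). TFR2 lies below the band.

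Counted at 1.5-fold or more the same way under both hairpins, 0 of the 7 iron genes that exceeded the median level were higher and 0 were lower, where 0.708% of 7485 genes (53) were higher and 0.134% (10) were lower. With hairpin 1 alone 1 of the 7, TFRC, was higher, against 2.57% of all genes, and with hairpin 2 alone 0 were, against 1.35%. With overexpression 1 of the 7, FTL, was higher, against 3.5% of 7410 genes (259), and 1, SLC40A1, was lower, against 0.85% (63). By sign alone 2 of the 7 (SLC40A1 and TFRC) were higher with both hairpins and 1 (STEAP3) lower with both, where 53.7% and 21.5% of all genes were. With overexpression 5 were higher and 2 lower, against 58.7% and 37.5%. Because these contrasts helped to choose the genes, nothing is read from the counts. SLC40A1 was the 1 of the 7 at least 0.5 higher with both hairpins and at least 0.5 lower with overexpression, against 0.0729% of 6856 genes above the median level in both lines, and TFRC the 1 at least 0.5 higher in all 3, against 0.233%, a limit set after their values were seen.

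Over the 8 genes the median log2 difference was 0.15 with hairpin 1, -0.08 with hairpin 2 and 0.06 with overexpression. Without TFR2, the 7 above the median level had medians of 0.18, -0.05 and 0.09, beside 0.10, 0.04 and 0.05 over all genes above that level. Quantile normalization, applied once more, took the medians of all genes from 0.10 to 0.00 with hairpin 1 and from 0.04 to -0.03 with hairpin 2. Of the counted genes 84.1% were higher with knockdown and 80.4% with overexpression, and 69.0% and 62.9% after that normalization. SLC40A1 stayed between 0.45 and 0.58 with hairpin 1, between 0.44 and 0.52 with hairpin 2 and between -0.82 and -0.75 with overexpression under the 4 scaling and summary alternatives. TFRC stayed between 0.57 and 0.71, 0.47 and 0.57, and 0.45 and 0.54, and FTL with overexpression between 0.82 and 0.90. limma, fitted over all 7485 genes of the 3 A549 arrays, called 0 after Benjamini-Hochberg adjustment at 0.05, the lowest adjusted p being 0.276, while 1312 genes had an unadjusted p under 0.05. It has 1 residual degree of freedom and assumes that the single control varies like the hairpins.

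**Figure D2:**
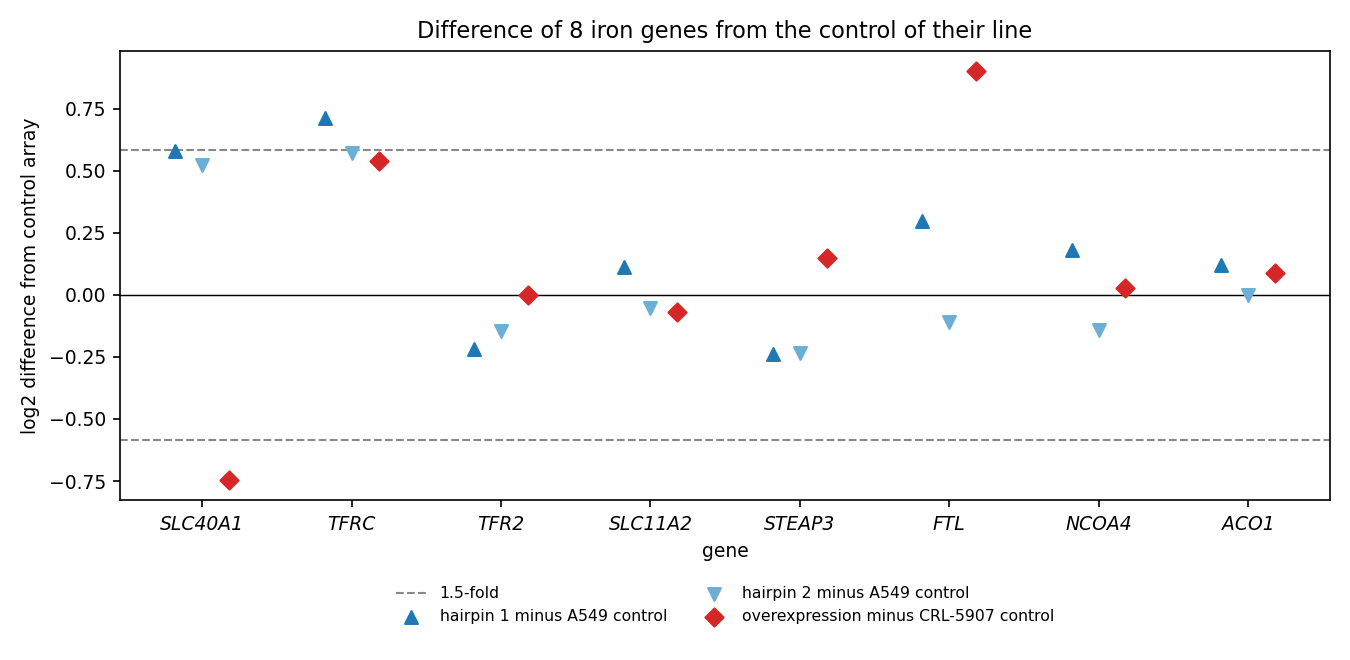
Log2 difference of each hairpin array from the A549 control and of the overexpression array from the CRL-5907 control (vertical axis) for the 8 genes (horizontal axis), 1 array for each point, with dashed lines at 1.5-fold. SLC40A1 lies at 0.58 and 0.52 in the knockdowns and at -0.75 in the overexpression sample, TFRC is above 0 at all 3 points, and FTL passes the line with overexpression only.

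**Figure D3:**
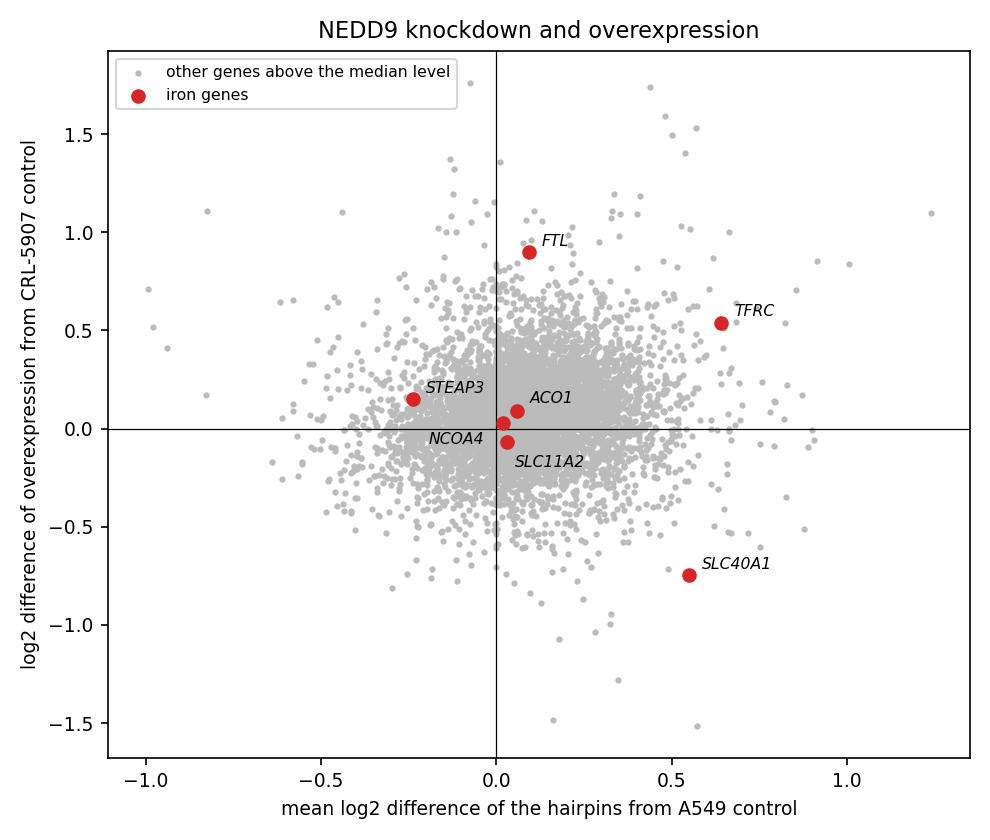
Mean log2 difference of the 2 hairpins from the A549 control (horizontal axis) against the log2 difference of overexpression from the CRL-5907 control (vertical axis) for the 6856 genes above the median level in both lines; NEDD9 is left out because it lies far above the plotted range. SLC40A1 (0.55 and -0.75) lies in the lower right, TFRC (0.64 and 0.54) in the upper right, and the other iron genes except FTL lie near the centre.

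Between the control arrays of the lines, A549 had more FTL by 0.88 on the log2 scale (1.84-fold), more NCOA4 by 0.56 (1.48-fold), more SLC40A1 by 0.38 and more STEAP3 by 0.29. TFRC was lower in A549, with a log2 difference of -0.70, so that CRL-5907 had 1.62-fold more. Of the 7 iron genes that exceeded the median level, 0 differed 2-fold between the lines in either direction, where 9.88% of 7716 genes were 2-fold higher in A549 and 5% in CRL-5907. SLC11A2 (-0.10), ACO1 (0.02) and TFR2 (0.00) were nearly equal, and ACO1 turned to -0.09 with centred arrays, -0.13 when quantile-normalized again and -0.10 with the level trend subtracted. With 1 array a line, these differences have no replicate check.

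Ordered by level, TFRC ran from the A549 control through hairpin 2, the CRL-5907 control and hairpin 1 to overexpression. The 3 middle arrays spanned 8.68 to 8.82, within the 0.164 SD between hairpins for genes of like level. SLC40A1 ran from overexpression through the CRL-5907 control and the A549 control to hairpin 2 and hairpin 1, and only the last 2 lay within that SD of each other. FTL ran from the CRL-5907 control through hairpin 2, the A549 control and overexpression to hairpin 1. In that order hairpin 2 and the A549 control lay within the 0.153 SD for its level, as did the A549 control and overexpression.

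The genes whose profile over the 5 arrays lay nearest were found by Euclidean distance of the levels, each gene centred on its own mean, among the 6856 genes above the median level in both lines. For SLC40A1 these were TLCD4 (distance 0.259), TM4SF5, a tetraspan membrane protein (0.299), and CYP2R1, a vitamin D 25-hydroxylase (0.320). TLCD4 differed by 0.24 and 0.28 in the knockdowns and by -0.67 in CRL-5907. For TFRC they were FGG, the fibrinogen gamma chain (0.200), KIF21A, a kinesin (0.245), and SOAT1, which esterifies cholesterol (0.252). FGG was at 0.80 and 0.85 with the hairpins and 0.54 with overexpression. For FTL they were UBASH3B (0.237), DUSP10, a phosphatase of stress kinases (0.243), and PUS7, a pseudouridine synthase (0.272). DUSP10 was at 0.32 and 0.07 with the hairpins and 0.67 with overexpression. TLCD4 (5.37) and TM4SF5 (5.38) were under the array median with overexpression. DUSP10 (5.30) and PUS7 (5.34) were under it on the CRL-5907 control. These genes passed in CRL-5907 through their other array only, so the sizes of their overexpression differences are uncertain. With 5 arrays such likeness is a description of these arrays.

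The wider iron pathway was covered by 7 lists with 110 other genes, of which 85 had a feature with 1 symbol. Of the 68 above the median level in A549, 1 was at least 1.5-fold higher with both hairpins (1.47%, against 0.708% of all genes) and 0 were lower. That gene, GCH1, was under the array median on the control and entered through the hairpin arrays, as did CDC14A, DHODH and SMAD7, so its share supports nothing, and 0 of the other 64 passed. Of the 66 in CRL-5907, 3 were higher with overexpression (4.55%, against 3.5%) and 1 was lower (1.52%, against 0.85%). ABCB10 was in turn under the median on the CRL-5907 control. By sign alone, the counts of the lists below are to be read beside the 53.7% of all genes that were higher and 21.5% lower with both hairpins (medians 0.10 and 0.04) and the 58.7% higher and 37.5% lower with overexpression (median 0.05). limma called none of the 7485 genes, these included. GCH1, HMOX1 and CYBRD1 kept their calls when the arrays were centred, quantile-normalized again or freed of the level trend, which were applied to these lists after their values were seen.

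Of the 5 uptake genes above the median level, 4 were below control with overexpression and 1 above it (median -0.21), where 37.5% of all genes were below. CYBRD1, a ferric reductase of the plasma membrane, was the 1 gene past 1.5-fold. Its log2 levels were 9.49, 9.26 and 9.36 on the A549 control, hairpin 1 and hairpin 2 arrays, and 6.81 and 6.10 on the CRL-5907 control and overexpression arrays. The overexpression difference was -0.71, the hairpins were at -0.24 and -0.13, and the 2 controls were 6.41-fold apart. LCN2, the siderophore-binding lipocalin, differed by -0.41 with overexpression and by 0.41 and -0.15 in the knockdowns. SLC39A14, a zinc and iron importer, was at 0.37 with overexpression, and STEAP2, another metalloreductase, at 0.04 and 0.15 with the hairpins.

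In the list of export and the hepcidin axis, 7 of 11 genes were higher with both hairpins and 0 lower with both (53.7% and 21.5% of all genes), with medians of 0.19 and 0.15 (0.09 and 0.07 when quantile-normalized again, with 4 higher and 1 lower), and none passed 1.5-fold with both. BMP6, the ligand that induces hepcidin, was at 0.66 and 0.31, the ferroxidase ceruloplasmin (CP), which aids ferroportin, at 0.50 and 0.29, and SMAD1, which relays BMP signals, at 0.33 and 0.24. HAMP, the hepcidin gene itself, ranged from 6.49 to 6.57 over the 5 arrays. With overexpression 5 of 9 genes were higher and 3 lower (median 0.13, and 0.06 with 5 higher and 4 lower when quantile-normalized again), none past 1.5-fold, led by ACVR1, a BMP type I receptor (0.25), SMAD4 (0.25) and BMPR2 (0.17). Storage and chaperone genes kept close to control. Their medians were 0.01 (0.00 when quantile-normalized again) and -0.02 with the hairpins (4 of 8 higher with both, 3 lower, and 1 and 4 when quantile-normalized again) and 0.11 with overexpression (6 of 8 higher, 1 lower, where 58.7% of all genes were higher; median 0.04 when quantile-normalized again, and 0.03 with 5 higher and 3 lower with the level trend subtracted), and 0 passed 1.5-fold in either. PCBP4 was at -0.16 and -0.14, the iron chaperone PCBP2 at -0.05 and -0.26, the autophagy gene ATG7 at 0.18 and 0.09 with the hairpins and 0.16 with overexpression, GABARAPL2 at 0.23 and MAP1LC3B at 0.15 with overexpression.

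Haem genes held the largest overexpression difference of the wider lists. HMOX1, heme oxygenase, which frees iron from haem, had log2 levels of 7.56, 7.44 and 7.56 on the A549 control, hairpin 1 and hairpin 2 arrays, and 6.76 and 7.92 on the CRL-5907 control and overexpression arrays. It was 2.23-fold above control in the overexpression sample (1.16), and the hairpins differed by -0.12 and 0.00. As for FTL, the CRL-5907 control was the low array. FLVCR1, a haem and choline transporter of the cell surface, also passed 1.5-fold with overexpression (0.65, and 0.57 with the level trend subtracted, which is under the limit) and was at 0.28 and 0.51 with the hairpins. ABCB10, a mitochondrial transporter, was at 0.48 with overexpression, an uncertain size because its control was under the array median. Of the 16 haem genes above the median level in each line, 11 were higher with both hairpins and 2 lower (medians 0.14 and 0.12, where 53.7% and 21.5% of all genes were higher and lower), 0 of them past 1.5-fold with both. Quantile-normalized again, 7 were higher and 3 lower (medians 0.04 and 0.04). With overexpression 10 were higher, ABCB10 included, and 5 lower (median 0.13), and 9 and 7 when quantile-normalized again (median 0.08). ABCG2, which exports porphyrins, was at 0.33 and 0.42 with the hairpins and TMEM14C, which imports a haem precursor into mitochondria, at 0.28 and 0.44.

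Iron-sulphur assembly and control of the regulatory proteins showed no gene past 1.5-fold with both hairpins or with overexpression. With the hairpins 10 of 14 genes were higher with both and 2 lower (medians 0.07 and 0.10, where 53.7% and 21.5% of all genes were higher and lower), and with overexpression 8 of 16 were higher and 7 lower (median 0.01). Quantile normalization applied once more took these medians to -0.05, 0.02 and -0.07, with 4 genes higher and 6 lower with both hairpins. CIAO2A, an assembly factor that acts on ACO1, was at 0.60 and 0.34 with the hairpins, NFU1, a cluster carrier, at 0.31 and 0.25, and GLRX5, a mitochondrial glutaredoxin, at -0.27 and -0.20. SKP1, a subunit of the ligase that degrades iron regulatory protein 2, was at 0.42 with overexpression, ISCA2 at -0.32 and NFU1 at -0.24. Among other transcripts with an iron-responsive element, CDC42BPA was at 0.27 and 0.23 with the hairpins and EPAS1, which encodes HIF-2 alpha, at 0.05 and 0.08. CDC14A was at 0.24 and 0.18 but under the array median on the A549 control. The count higher with both hairpins, these 3, was 2 with the level trend subtracted. With overexpression EPAS1 was at 0.26 and CDC42BPA at -0.12. ALAS2 had the same value, 4.38, on all 5 arrays.

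The list named for guards against ferroptosis, death by iron-dependent lipid peroxidation, also holds genes with other roles, such as ACSL4. It included the 1 gene of the wider lists past 1.5-fold with both hairpins. GCH1, which starts tetrahydrobiopterin synthesis, had log2 levels of 5.40, 6.44 and 6.16 on the A549 control, hairpin 1 and hairpin 2 arrays, and 6.88 and 6.87 on the CRL-5907 control and overexpression arrays. Its differences were 1.04 and 0.76 with the hairpins. The control was under its array median of 5.80, so GCH1 entered through the hairpin arrays and both sizes are uncertain. In this list 9 of 11 genes were higher with both hairpins and 2 lower (medians 0.19 and 0.13), where 53.7% and 21.5% of all genes were. The 2 lower were GPX4 (-0.12 and -0.21) and AIFM2 (-0.01 and -0.01), and the 9 higher include ACSL4 (0.41 and 0.05). Without GCH1 and DHODH, which were under the median on the control, 7 of 9 were higher. SLC7A11, the cystine importer, was at 0.23 and 0.19. DHODH was at 0.24 and 0.24, with exactly equal values on the hairpin arrays, which RMA can produce. Quantile-normalized again, 6 were higher and 3 lower. With overexpression 5 of 10 were higher and 5 lower (median 0.00, and -0.06 when quantile-normalized again). GCLM, the modifier subunit of the enzyme that starts glutathione synthesis, passed 1.5-fold (0.62), but not when quantile-normalized again (0.51) or with the level trend subtracted (0.54), its catalytic subunit GCLC was at 0.53, and ACSL4, which primes lipids for peroxidation, at -0.43.

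**Figure D4:**
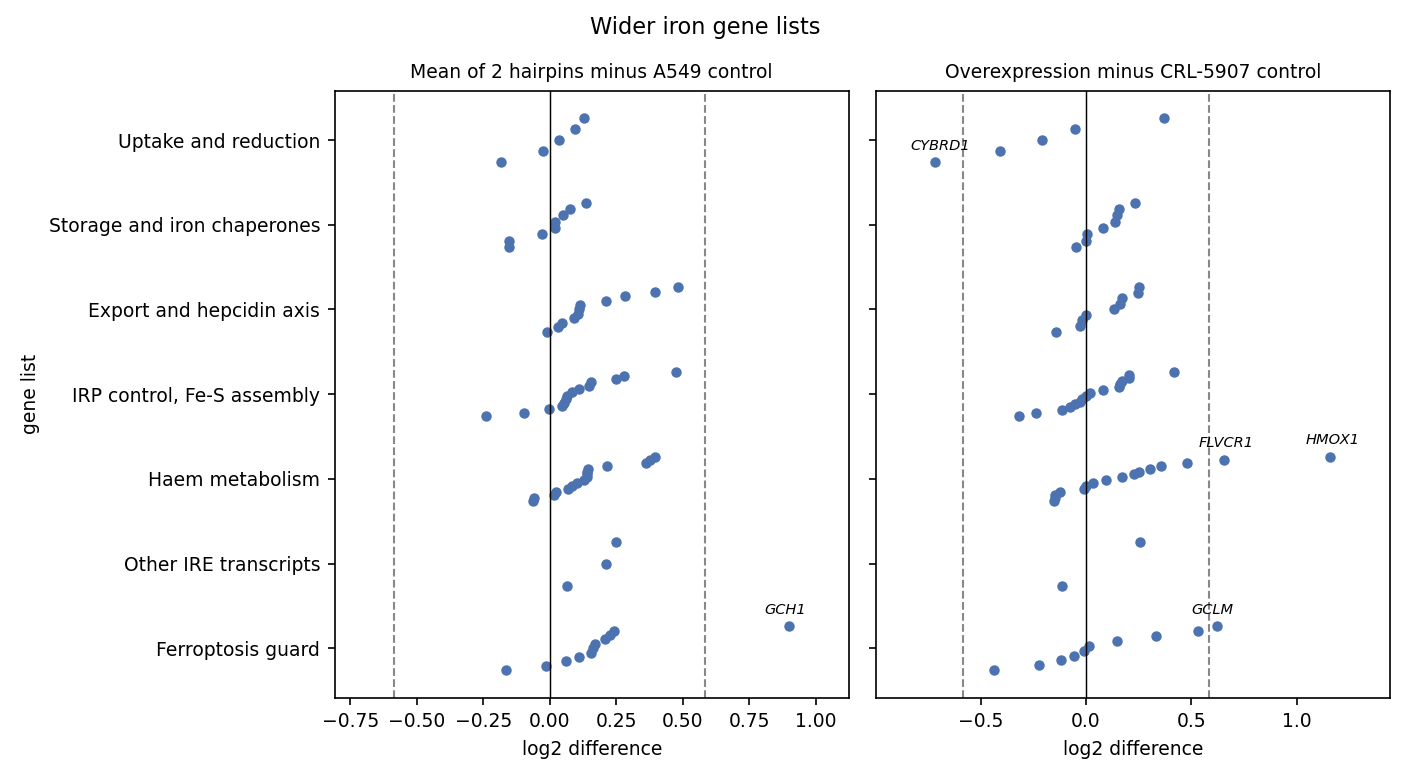
Log2 difference (horizontal axes) of genes above the median level in the 7 wider lists (vertical axis), as the mean of the 2 hairpins in A549 (left) and as overexpression in CRL-5907 (right), with 1 point for each gene and dashed lines at 1.5-fold. GCH1 lies past the line on the left, and HMOX1, FLVCR1 and GCLM (the last pair not under every scaling) above it and CYBRD1 below it on the right.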

How the data were processed

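The authors' deposited values are log2 levels of 22011 features on 5 exon arrays. The submitters' processing notes name RMA and Affymetrix Power Tools. Versions, library files and genome build are not given in the sources used here. Trizol-extracted total RNA underwent ribosomal RNA depletion, amplification and biotin labelling, per the labels' protocols. The log2 scale was taken from the values (0.58 to 13.09). RMA can compress differences and can give several arrays exactly equal values (6.25% to 8.97% of features in any pair). Any pair of arrays from A549 correlated at 0.989 to 0.991, the CRL-5907 pair at 0.989, and pairs across lines at 0.948 to 0.953.

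The platform annotation gave 14432 features 1 symbol, 2408 several and 5171 none. Only features with 1 symbol were used, the brightest for the 197 genes with several, and all 8 genes found matched RefSeq by Entrez number with the same symbol. Counts cover genes that exceeded the median of the named features on their brightest array of the comparison. Differences are log2 levels minus the control array of the line. The limits were 1.5-fold for the manipulations and 2-fold between lines. A limma model (3.58.1, R 4.3.3; lmFit, eBayes, variance trend) was fitted to knockdown. The rules that count genes higher with knockdown or with overexpression were tested for recovery of known increases in simulated data. The other counting rules and limma were run there without such a requirement, and the level filter was not tested.

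The genes and lists were chosen with earlier results of these data known. Named are the 10 listed genes, NEDD9, STK11, up to 3 leading genes above the median level of each wider list in each manipulation, and the 3 genes nearest to each listed gene that spans at least 1 log2 unit. The wider lists are uptake and reduction, storage and iron chaperones, export and the hepcidin axis, control of iron regulatory proteins with iron-sulphur assembly, haem, other transcripts with an iron-responsive element, and ferroptosis guard. Alternatives covered centring, a repeated quantile normalization, a level trend, the features of a gene, the filter, the fold and each hairpin. STK11 had log2 levels of 6.23, 6.11 and 6.13 on the A549 control and hairpin arrays and 6.13 on both CRL-5907 arrays. HAMP, ALAS2, SMAD7, GPX4, AIFM2, the markers and the further genes under other observations were named outside this rule after their values were seen. Sequences are from the RefSeq promoter table (GRCh38.p14), which held entries for 8 of the 10 genes. Of the marker lists, 1 of 5 leukocyte markers (CD14), 1 of 5 fibroblast markers (COL1A1), 1 of 2 erythroid markers (KLF1) and 3 of 3 hepatocyte-type markers (ALB, APOA1 and TTR) were above an array's median on at least 1 array.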

Additional observations from a re-analysis of the deposited data

How the results depend on the processing

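With centred arrays, quantile normalization repeated, the level trend subtracted, features averaged per gene, the filter dropped, or the filter raised to the 75th percentile, the counts of the listed iron genes were 0 and 0 with knockdown, 1 higher and 1 lower with overexpression, and 0 and 0 between lines. At 2-fold, 0 were higher and 0 lower with overexpression, and at 1.5-fold between lines 1 was higher in A549 and 1 in CRL-5907. Leaving out either hairpin gave 0 to 1 listed genes higher with knockdown, 101 to 192 of all genes higher and 36 to 40 lower; the 1 listed gene was TFRC without hairpin 2. Over all genes, repeated quantile normalization gave 18 lower with knockdown and 111 lower with overexpression, and subtraction of the trend 17 lower with knockdown. Without the filter 113 were higher and 43 lower with knockdown, and 413 and 192 with overexpression. With the 75th percentile filter, which tests fewer genes, these were 20 and 3, and 151 and 34, and 498 were higher in A549. At 2-fold they were 5 and 0, and 52 and 6, and at 1.5-fold between lines 1499 were higher in A549 and 854 in CRL-5907. limma called 0 genes with each alternative, with the lowest adjusted p between 0.112 and 0.276 after Benjamini-Hochberg adjustment and 1204 to 2220 genes at an unadjusted p under 0.05. No paired analysis was possible because the control arrays carry no hairpin number. Background detection for each feature was not used here, and with 1 control array a line no error can be given for the controls.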

Other observations

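SLC40A1 was 1 of 5 genes, of 6856 above the median level in both lines (0.0729%), that were higher by at least 0.5 on the log2 scale with both hairpins and lower by at least 0.5 with overexpression. The others were ULBP1, which NK cells recognise (0.60, 0.54 and -1.51), KNG1, kininogen (0.88, 0.62 and -0.60), AGR2, a protein disulphide isomerase of secretory epithelium (0.65, 0.67 and -0.53), and CD38, an NAD-consuming ectoenzyme (0.95, 0.81 and -0.51). TFRC was 1 of 16 genes (0.233%) higher by at least 0.5 in all 3. The other 15 were ANKRD42, AURKA, COX20, CPM, DTL, FAM223A, FGG, GINS2, IDI1, MCM4, NOSTRIN, PLK1, RIMKLB, SRSF3 and TYMS. The limit of 0.5 was chosen after the values of SLC40A1 and TFRC were seen, so these counts describe the arrays and support nothing.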
